A study of Mus musculus with 2 samples.

Results

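EC_VEN-PV- is the label the authors gave to one of 2 groups of venous endothelial cells from mouse sciatic nerve. The other venous group carries the label EC_VEN-PV+, and the sources used here do not say what PV stands for. Cells were taken by that label from the deposited cell table, matched to the count matrices by library and barcode. A cell was to be left out where its barcode held at least 5 times its number of UMIs (unique molecules counted) in the other library, and no cell with this label met that condition. That left 165 EC_VEN-PV- cells, 44 from intact and 121 from injured nerve, among 1992 annotated endothelial cells and 3641 barcodes in all. The comparisons below are with EC_VEN-PV+ (213 intact and 362 injured cells) and with EC_BAR (181 and 36 cells, after leaving out 47 injured cells as shallower copies).

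Veins collect blood behind the capillaries, and their endothelium is the main site where leukocytes slow, stick and leave the blood. In brain and nerve, part of the endothelium is sealed by tight junctions, of which claudin-5 (Cldn5) is a main component, and carries transporters in place of free leakage. Plvap, a protein of fenestrae and caveolar diaphragms, marks the opposite, leaky type, and the transcription factor Nr2f2 (COUP-TFII) sets vein identity.

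All cells came from adult mice that carried the tamoxifen-inducible Cdh5(PAC)-CreERT2 driver and the R26-TomatoLSL reporter, so that cells expressing the endothelial cadherin Cdh5 at the time of induction, and their progeny, were marked by tdTomato. Cells were sorted as TdTomato+ and negative for the leukocyte antigen CD45. The intact library was made from pooled uninjured sciatic nerves and the injured library from the tissue bridge at the lesion at day 7. Each condition was 1 library with no replicate, so no test was made. Animals, the tissue sampled, sorting and library cannot be told apart from injury, and intervals cover counting error at 95% only. The labels themselves were made from the same cells, by steps that the sources used here do not give, and differences between labels are therefore descriptions.

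The intact and injured matrices held 1618 and 2023 barcodes with 9401203 and 27157892 UMIs. The libraries shared 298 barcodes. Of the 44 intact EC_VEN-PV- cells, 11 had a far shallower copy under the same barcode in the injured library, where 8 of the copies were labelled EC_BAR and 3 INTERMEDIATE. No injured EC_VEN-PV- cell shared a barcode. EC_VEN-PV- cells held 492232 UMIs in the intact and 1435916 in the injured library, with medians of 8544 and 9394 UMIs and of 2668 and 3096 genes per cell. Their median mitochondrial share was 4.97% and 3.34%. Xist, the RNA of the inactive X chromosome, had a UMI in 18.2% of intact and 60.8% of injured EC_VEN-PV- cells thinned to 2000 UMIs, and the Y-linked Ddx3y in 9.09% and 5.00%. The sources used here do not give the sex of the pooled animals, and its part in the results was not tested.

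The label was checked against 4 defining genes, Slc38a5, Lrg1, Vwf and Cldn5. Slc38a5, an amino acid transporter of brain veins (chromosome X, 8271133 to 8280179 of GRCm38), had no UMI in EC_VEN-PV-, which allows a level of up to 6.09 CPM (UMIs per 1000000 UMIs of the group) in the intact and 2.09 CPM in the injured library. It had 1 UMI in the whole intact and 0 in the whole injured matrix, so this marker could not be read in any class. Vwf, the clotting factor carrier stored in endothelial granules (chromosome 6, 125546774 to 125686679), was at 620 CPM (552 to 693) in intact and 1132 CPM (1078 to 1189) in injured EC_VEN-PV- cells. In the injured library this was the highest Vwf level of the 9 endothelial classes. Vcam1 was higher in EC_VEN-PV- than in any other class in each library, at 878 CPM (797 to 964) and 465 CPM (431 to 502). Nr2f2 (chromosome 7, 70351944 to 70366735) was at 219 CPM (180 to 265) and 227 CPM (203 to 253), second among the classes to EC_VEN-PV+ in each library. EC_VEN-PV+ had Vwf at 1396 and 767 CPM, and EC_BAR at 599 and 482 CPM. The sorted reporter, TdTomato, was at 56.9 and 118 CPM in EC_VEN-PV-, and between 75.7 and 132 CPM in the other 2 labels.

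Lrg1 and Cldn5, the remaining defining genes, stood in opposite relation in the 2 libraries. Lrg1, a secreted glycoprotein of venous endothelium (chromosome 17, 56119678 to 56122001), was at 187 CPM (151 to 229) in intact and at 2350 CPM (2272 to 2431) in injured EC_VEN-PV- cells. Cldn5 (chromosome 16, 18776847 to 18778262) was at 3504 CPM (3341 to 3674) in intact and at 363 CPM (332 to 395) in injured cells. The label thus covered cells rich in claudin-5 and poor in Lrg1 in intact nerve, and the reverse at the lesion. Summed over their fixed marker sets, venous genes were at 2523 and 7423 CPM, barrier genes at 8547 and 1273 CPM and arterial genes at 2172 and 629 CPM. The barrier set holds Cldn5, and the venous set holds Lrg1, Vwf, Vcam1 and Nr2f2, so these sums partly repeat the levels above. In EC_BAR the same sums were 993 and 2173, 12568 and 4779, and 4600 and 2407 CPM. In EC_VEN-PV+ they were 7631 and 7017, 854 and 461, and 927 and 440 CPM. Of the 11 venous markers 10 had UMIs in each library, and the absent one was Slc38a5.

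**Figure D1:**
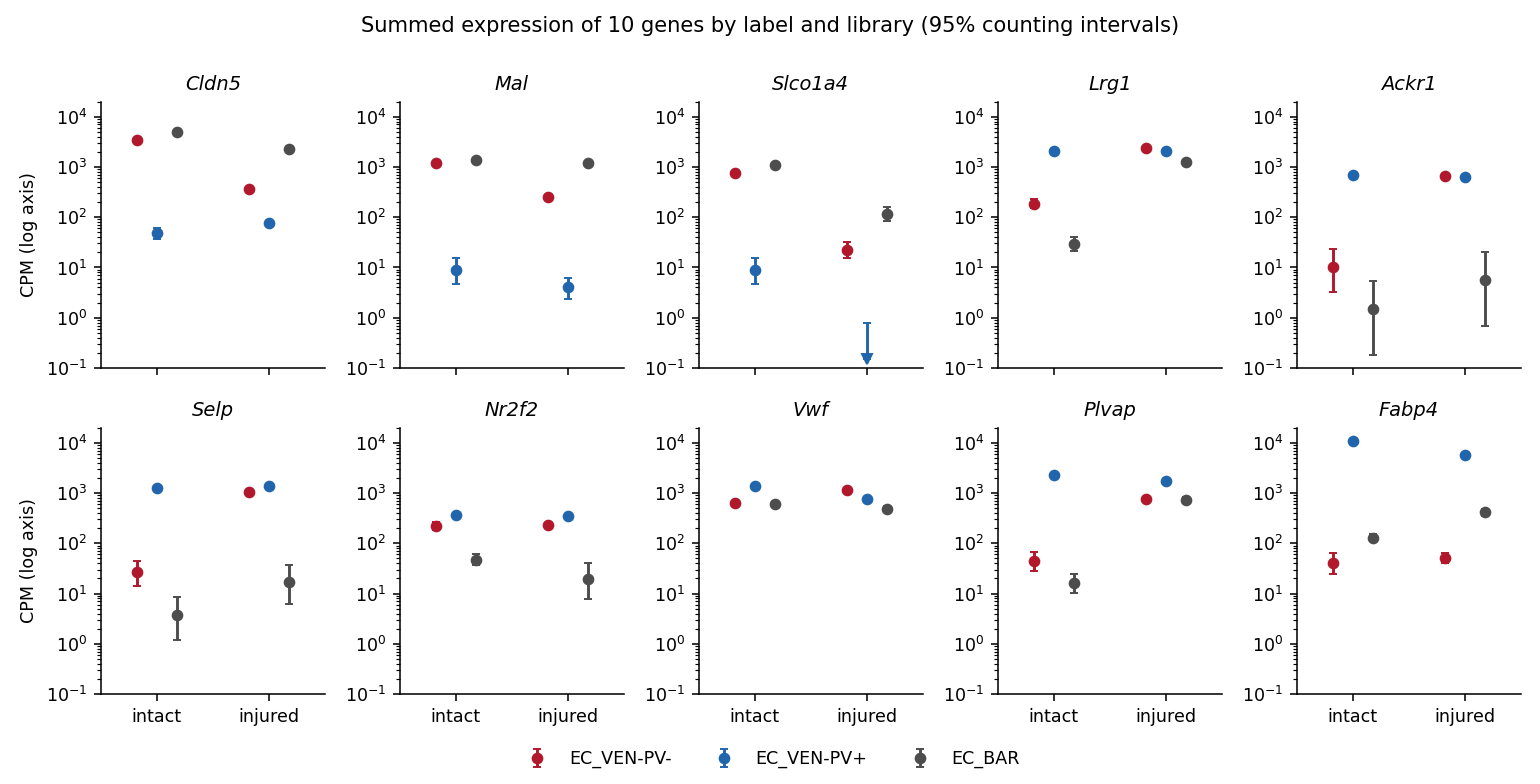
Summed level of 10 genes in CPM (vertical log axis) in EC_VEN-PV-, EC_VEN-PV+ and EC_BAR of the intact and injured libraries, with 95% counting intervals as bars and a triangle for 0 UMIs. Cldn5 and Mal of EC_VEN-PV- lie beside EC_BAR in intact nerve, Lrg1, Ackr1 and Selp lie beside EC_VEN-PV+ in injured nerve, and Fabp4 is low in EC_VEN-PV- in both.

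EC_VEN-PV- made up 6.13% (exact binomial interval 4.49 to 8.14) of 718 annotated endothelial cells in the intact library and 9.50% (7.94 to 11.2) of 1274 in the injured one. The intervals overlapped slightly, but they cover counting error within 1 library each and do not test a difference between conditions. Restricted to cells with 3000 UMIs or more, EC_VEN-PV- made up 9.13% of intact and 9.48% of injured cells. The shallowest intact EC_VEN-PV- cell held 3353 UMIs, while the intact EC_VEN-PV+ and EC_BAR groups went down to 940 and 619, so that depth moved with this label in the intact library.

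Across genes, the EC_VEN-PV- profile was nearest to a different class in each library. In intact nerve the Pearson correlation of log2 levels across genes, a description within 1 library, was 0.947 with EC_BAR (2890 genes) and 0.798 with EC_VEN-PV+ (2983 genes). In injured nerve it was 0.894 with EC_BAR (3036 genes) and 0.947 with EC_VEN-PV+ (3069 genes). The points share a library, and the groups differ in depth. Intact EC_VEN-PV- cells therefore resembled barrier cells, and injured ones resembled the other venous cells.

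The first comparison asked which genes set EC_VEN-PV- apart from EC_BAR. A gene was measured where its mean over the 2 groups was at least 50 CPM and counted as higher or lower at 2-fold, after adding 10 CPM to both levels. In intact nerve 29 of 2890 measured genes (1.00%) were higher in EC_VEN-PV- and 36 (1.25%) lower. Without cells of shared barcodes the lower count was 63. In injured nerve, 90 of 3036 (2.96%) were higher and 114 (3.75%) lower. Among the 2518 genes measured in both libraries, 14 (0.556%) were higher in each library and 14 (0.556%) lower in each.

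Receptors for leukocytes and the vein regulator Nr2f2 led the genes higher than in EC_BAR in both libraries, beside genes of other roles. This ranking was by the smaller of the 2 log2 ratios, not within each library. Vcam1, the endothelial receptor for leukocyte integrins (chromosome 3, 116109949 to 116129688), was at 878 against 109 CPM in intact nerve, 8.07-fold (6.68 to 9.80), and at 465 against 81.7 CPM in injured nerve, 5.69-fold (3.93 to 8.57). Nr2f2 was 4.67-fold (3.39 to 6.46) and 11.5-fold (5.52 to 28.9) higher. Icam1, a second integrin receptor, was 3.48-fold (2.75 to 4.42) and 9.62-fold (7.00 to 13.6) higher. The apelin receptor Aplnr, a gene of veins and sprouting vessels, was at 114 against 12.5 CPM in intact nerve and at 304 against 98.6 CPM in injured nerve. Lrg1 was 6.36-fold (4.34 to 9.47) higher in intact nerve. In injured nerve it was at 2350 against 1237 CPM, a log2 ratio of 0.92 that did not reach 2-fold. Also higher in each library were the semaphorin and VEGF co-receptor Nrp2, the metal transporter Slc39a8, apolipoprotein E (Apoe), Prcp, Net1 and Ch25h.

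Of the venous identity list, 5 of 9 measured genes were at least 2-fold higher than in EC_BAR in intact nerve and none lower (median log2 ratio 1.65, against -0.03 over all measured genes). In injured nerve 10 of 13 were higher and none lower (median 1.78, all genes 0.01). The additional genes there included Ackr1, the chemokine-binding receptor of venules (652 against 5.64 CPM), and Selp, the P-selectin that captures rolling leukocytes (1041 against 16.9 CPM). Both had few UMIs in intact EC_VEN-PV- cells, with 5 for Ackr1 and 13 for Selp.

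Arterial identity genes lay on the other side. Of the VEGF and Notch list, 1 of 10 measured genes was lower (Hey1) and 1 higher (Nrp2) in intact nerve, and 4 of 10 were lower and 1 higher in injured nerve (medians -0.18 and -0.71). Hey1, a Notch target of arterial cells, was at 8.13 and 13.2 CPM in intact and injured EC_VEN-PV- cells, against 115 and 113 CPM in EC_BAR. Mfsd2a, the lipid transporter of blood-brain barrier endothelium, was at 112 against 470 CPM in intact nerve. In injured nerve it had a single UMI (0.696 CPM) against 138 CPM. Sema3g, a secreted semaphorin, was at 40.6 against 118 CPM and at 2.09 against 110 CPM. The chemokine Cxcl12 was at 1258 against 3025 CPM and at 100 against 874 CPM. Of the arterial identity list 4 of 10 measured genes were lower and none higher in intact nerve, and 9 of 13 were lower and none higher in injured nerve, among them the arterial connexin Gja4, with 1 UMI in EC_VEN-PV- against 273 CPM in EC_BAR. That list was at a median of -0.72 and -1.34.

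Other named genes lower than in EC_BAR in each library had mixed roles. The protease inhibitor cystatin C (Cst3) was at 697 against 1574 CPM in intact nerve and at 321 against 1034 CPM in injured nerve. The zinc transporter Slc39a10 was at 167 against 357 CPM and at 72.4 against 225 CPM. The interferon-induced Ifit2 was at 67.0 against 178 CPM and at 3.48 against 121 CPM, and Arl15 and the pericyte-attracting growth factor Pdgfb were lower as well. In intact nerve the progestin receptor Paqr5 was at 14.2 against 136 CPM, the sialyltransferase St8sia6 at 12.2 against 115 CPM, fibronectin (Fn1) at 30.5 against 143 CPM and tissue plasminogen activator (Plat) at 102 against 319 CPM. The growth factor Bmp4 was instead higher there, at 114 against 27.9 CPM. In injured nerve the secreted protein Scgb3a1 was at 11.1 against 426 CPM. Sele, Bgn and the metallothionein Mt2 were higher in EC_VEN-PV- in injured nerve, at 209 against 8.45 CPM, 137 against 8.45 CPM and 341 against 28.2 CPM, with 36.1% of the Mt2 UMIs in 1 cell.

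EC_VEN-PV- and EC_BAR differed by list in nutrient transport more in injured than in intact nerve. Of 11 measured nutrient transporters, 1 was higher and 2 lower in intact nerve (median -0.50), and of 9 measured in injured nerve 1 was higher and 6 lower (median -1.51). Glut1 (Slc2a1), the glucose carrier of barrier endothelium, was at 622 against 1082 CPM and at 167 against 640 CPM. Mal, a membrane protein of lipid-raft sorting (chromosome 2, 127633226 to 127656695), was at 1201 against 1383 CPM in intact and 247 against 1172 CPM in injured nerve. Slc39a8 went the other way, at 106 against 35.3 CPM and 137 against 11.3 CPM.

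The second comparison asked how EC_VEN-PV- differed from EC_VEN-PV+. In intact nerve 140 of 2983 measured genes (4.69%) were higher in EC_VEN-PV- and 200 (6.70%) lower. In injured nerve 39 of 3069 (1.27%) were higher and 43 (1.40%) lower. Of the 2628 genes measured in both, 19 (0.723%) were higher in each library and 24 (0.913%) lower in each. The 2 venous labels were thus further apart in intact than in injured nerve by this count. The intact groups held fewer UMIs (492232 and 1344982, against 1435916 and 4754177), which leaves more counting error there. Whether the difference between libraries exceeds the spread between animals was not tested.

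The single gene with the widest gap in each library was Fabp4. Fabp4, a fatty acid carrier of capillaries and veins (chromosome 3, 10204088 to 10208576), was at 40.6 and 51.5 CPM in intact and injured EC_VEN-PV- cells, against 10611 and 5734 CPM in EC_VEN-PV+. It was the lowest Fabp4 level of the 9 endothelial classes in each library, and it was 261-fold (169 to 428) and 111-fold (88.6 to 142) lower. After thinning to 2000 UMIs, 3 of 44 intact and 11 of 120 injured EC_VEN-PV- cells held a Fabp4 UMI, and no cell held more than 1. EC_BAR cells held one in 11.7% of intact and 17.1% of injured cells, at 130 and 417 CPM, with 70.6% and 63.5% of those UMIs in a single cell. Cd36, the fatty acid translocase, had 1 and 6 UMIs in EC_VEN-PV- and was at 858 and 350 CPM in EC_VEN-PV+. Fabp5, a second carrier, was at 6.09 and 14.6 CPM against 525 and 479 CPM. Of the fatty acid and lipid list, 4 of 8 measured genes were lower in each library (medians -1.34 and -1.28, all genes -0.04 and -0.05). Fabp4, Cd36 and Fabp5 were lower in both, joined by Meox2 in intact nerve and by Gpihbp1 in injured nerve. Gpihbp1 changed side, since it was higher in intact nerve (log2 ratio 1.98) and lower in injured nerve (-1.67). The capillary identity list, which also holds Fabp4 and Cd36, had medians of -1.77 and -1.67.

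Other named genes lower than in EC_VEN-PV+ in each library included secreted and matrix proteins. Of the matrix list as a whole, 5 of 16 measured genes were lower in intact and 3 of 19 in injured nerve, with none higher (medians -0.36 and -0.43). The growth factor Igf1 was at 4.06 and 11.8 CPM against 135 and 246 CPM. Biglycan (Bgn), a small matrix proteoglycan, was at 26.4 and 137 CPM against 477 and 480 CPM. Fibulin-2 (Fbln2), an extracellular glycoprotein, was at 10.2 and 189 CPM against 549 and 550 CPM. Plvap was 50.1-fold (33.0 to 80.1) lower in intact and 2.28-fold (2.14 to 2.43) lower in injured nerve. The same held for carboxypeptidase E (Cpe), Aebp1, Rasa4, Ldb2 and the homeobox gene Meox1. The secreted cytokine-like protein Cytl1 had 0 UMIs in EC_VEN-PV- in each library, against 495 CPM in intact EC_VEN-PV+ cells, at least 81.2-fold lower with the 0 set to 3 counts. Versican (Vcan), a large proteoglycan, had 0 UMIs in intact EC_VEN-PV- cells and was at 8.36 against 148 CPM in injured ones.

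Mal, the tight junction gene Cldn5 and the efflux gene Abcb1a were among those higher in EC_VEN-PV- than in EC_VEN-PV+ in both libraries. The lists were mixed. Of the junction list 2 of 11 measured genes were higher and 1 lower in intact nerve (median 0.12). In injured nerve 1 of 10 was higher and none lower (median -0.03). Efflux and organic anion transporters had 3 of 7 higher and 3 lower in intact nerve (median -0.84). In injured nerve 2 of 8 were higher and 1 lower (median 0.20). Mal was 135-fold (76.5 to 262) higher in intact and 61.7-fold (38.9 to 104) higher in injured nerve, where EC_VEN-PV+ was at 8.92 and 4.0 CPM. Cldn5 was 72.5-fold (56.6 to 94.4) and 4.78-fold (4.17 to 5.48) higher. P-glycoprotein (Abcb1a), the drug efflux pump of the blood-brain barrier, was 8.41-fold (7.05 to 10.1) and 4.54-fold (3.87 to 5.32) higher. Slco1a4, which carries organic anions across barrier endothelium, was at 768 against 8.92 CPM in intact nerve. In injured nerve it was at 22.3 CPM against 0 UMIs, at least 35.3-fold higher with the 0 set to 3 counts over the group. The growth factor pleiotrophin (Ptn) was 9.51-fold (8.25 to 11) and 14.4-fold (11.3 to 18.6) higher, and the transcription factor Meis2 7.88-fold (4.99 to 12.8) and 9.20-fold (6.80 to 12.6) higher. Lipocalin-2 (Lcn2), an iron-trapping acute phase protein, was at 390 against 12.6 CPM and at 136 against 13.5 CPM. Mt1, Maoa, Gpcpd1, Pltp, Ch25h and Pglyrp1 completed the named set. Mt1 was uneven, since 1 cell held 39.1% of its intact UMIs and 1 cell 30.5% of its injured UMIs.

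Further genes separated the venous labels in intact nerve and less in injured nerve. Carbonic anhydrase 4 (Car4), a capillary marker, was at 955 against 5.95 CPM in intact nerve and at 8.36 against 1.05 CPM in injured nerve, where 2 of 121 EC_VEN-PV- cells held its UMIs. Of 11 measured nutrient transporters 10 were higher and none lower in intact nerve (median 1.60), and 2 of 7 were higher in injured nerve (median 0.47). Of the list of Wnt targets and barrier transcription factors, 3 of 10 measured genes were higher and 1 lower in intact nerve (median -0.14), and 0 of 7 passed either way in injured nerve (median 0.06). Its Wnt pathway genes Lef1 and Nkd1, read-outs of the signal that maintains the blood-brain barrier, were at 189 and 118 CPM in intact EC_VEN-PV- cells, where EC_VEN-PV+ had 0.744 CPM and 0 UMIs. In injured nerve Lef1 was at 76.6 against 1.26 CPM and Nkd1 at 11.1 CPM against 0 UMIs. Neither gene was among the 7 there, since its mean over both labels was below the minimum for a measured gene. The count of 0 of 7 therefore leaves out Lef1 and Nkd1, which were both higher in EC_VEN-PV- in injured nerve too. Conversely, Ackr1 (chromosome 1, 173331886 to 173333750) was 68.7-fold lower (29.3 to 212) and Selp (chromosome 1, 164115264 to 164150026) 47.9-fold lower (28.0 to 90.2) than in EC_VEN-PV+ in intact nerve. In injured nerve Ackr1 was at 652 against 632 CPM and Selp at 1041 against 1385 CPM. The venous identity list had 9 of 13 measured genes lower in intact nerve (median -1.59) and 1 of 13 in injured nerve (median -0.41), that gene being Aplnr.

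**Figure D2:**
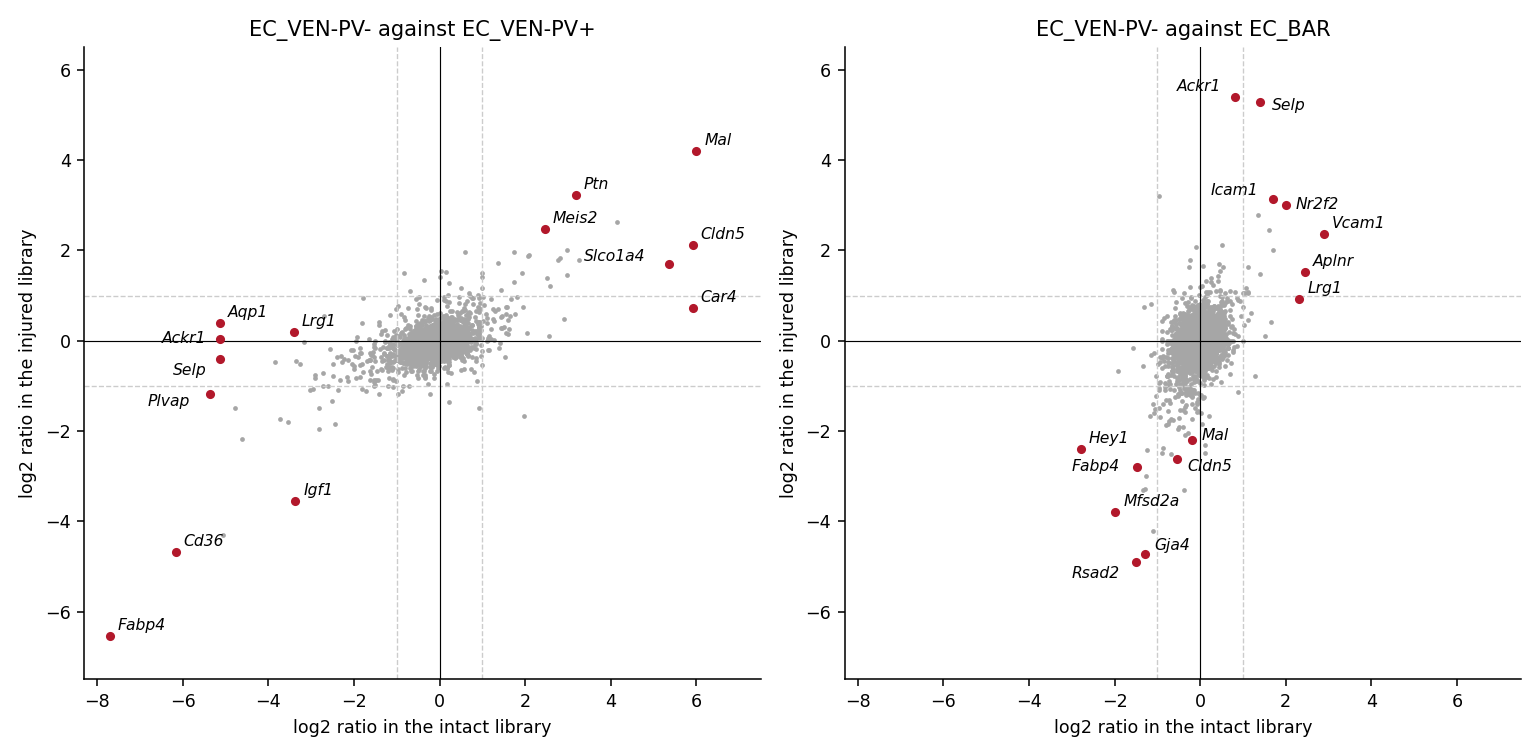
Log2 ratio of EC_VEN-PV- to EC_VEN-PV+ (left) and to EC_BAR (right) for each gene measured in both libraries (grey points), in the intact library on the horizontal and the injured library on the vertical axis, with dashed lines at 2-fold and 14 genes per panel marked in red (including a few measured in 1 library only). Fabp4 and Cd36 are far down in both libraries on the left while Ackr1, Selp and Aqp1 are near 0 in the injured library, and on the right Ackr1 and Selp are further up in the injured than in the intact library.

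The third comparison asked how EC_VEN-PV- cells of the lesion differed from those of intact nerve. Of 2952 measured genes 189 (6.40%) were at least 2-fold higher and 197 (6.67%) at least 2-fold lower in injured nerve. For the same contrast, 94 of 3070 genes (3.06%) were higher and 150 (4.89%) lower in EC_VEN-PV+, and 125 of 2976 (4.20%) were higher and 182 (6.12%) lower in EC_BAR. The smaller UMI total of each contrast was 492232 in EC_VEN-PV- (intact), 1344982 in EC_VEN-PV+ (intact) and 354861 in EC_BAR (injured). Fewer UMIs leave more counting error, so the counts of the 3 labels are not compared at equal depth. A change within cells and a change in which cells received the label cannot be told apart here.

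Genes of leukocyte capture were among the highest in injured nerve. Ackr1 was at 10.2 CPM (3 of 44 cells) in intact and 652 CPM (103 of 121 cells) in injured EC_VEN-PV-, 64.2-fold (27.4 to 198). Selp was at 26.4 and 1041 CPM, 39.4-fold (23 to 74.2). E-selectin (Sele), which is made on inflammatory stimulation, was at 48.8 and 209 CPM, and Icam1 at 335 and 1057 CPM, 3.15-fold (2.68 to 3.73). Vcam1 was lower, at 878 and 465 CPM, and did not reach 2-fold. Of the leukocyte adhesion and chemokine list 7 of 14 measured genes were higher and 3 lower (median 0.99, all genes 0.10). The neutrophil growth factor Csf3 was at 8.13 and 205 CPM, with 38.3% of its injured UMIs in 1 cell. The neutrophil chemokine Cxcl1 was at 69.1 and 284 CPM and interleukin 6 (Il6) at 30.5 and 87.1 CPM. The 3 lower genes were Cxcl12 at 1258 and 100 CPM, Csf1 at 89.4 and 22.3 CPM and Cxcl10 at 89.4 and 25.8 CPM.

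Venous identity genes were mostly higher in injured nerve, with 8 of 13 measured genes at least 2-fold higher and none lower (median 1.34). Besides Ackr1, Selp and Lrg1, at 12.6-fold (10.2 to 15.6), these were Csrp2 (63.0 and 383 CPM), Lbp (18.3 and 86.4 CPM), Aplnr (114 and 304 CPM), the cyclooxygenase Ptgs1 (46.7 and 127 CPM) and Tmem252. Nr2f2 was nearly equal in the 2 libraries, with a log2 ratio of 0.05. In EC_BAR the same list had 3 of 7 measured genes higher and none lower in injured nerve (median 0.42). These were Lrg1, Tmem252 and Aplnr, at log2 ratios of 4.98, 2.70 and 2.27. In EC_VEN-PV+ 2 of 13 were higher and 1 lower (median -0.14). Plvap was at 44.7 and 752 CPM, 16.8-fold (11.1 to 27.0), and in EC_BAR at 16.2 and 738 CPM. The water channel Aqp1 was at 71.1 and 1676 CPM, 23.6-fold (16.9 to 33.9). It was lower in injured EC_VEN-PV+ cells (2825 and 1266 CPM) and higher in injured EC_BAR cells (log2 ratio 4.77). These genes brought injured EC_VEN-PV- cells to levels near those of EC_VEN-PV+ for Ackr1, Selp, Aqp1 and Lrg1.

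The lowest genes in injured nerve were mixed in role, with barrier markers among them. Car4, a carbonic anhydrase of capillary walls, had the lowest log2 ratio of the named genes (-5.72) and was at 955 and 8.36 CPM, 114-fold (64.8 to 223) lower in injured nerve. Slco1a4 was at 768 and 22.3 CPM, 34.5-fold (24.0 to 51.1) lower, and Cldn5 9.66-fold (8.75 to 10.7) lower. Spock2, a matrix proteoglycan of barrier endothelium, was at 865 and 20.9 CPM. The large amino acid transporter Slc7a5 was at 228 and 7.66 CPM, and Mfsd2a at 112 CPM against a single UMI. The lipid transfer protein Pltp was at 1154 and 107 CPM. Fmo2, a flavin monooxygenase, was at 408 and 9.05 CPM, and Clic5 at 132 CPM against 0 UMIs, at least 63.2-fold lower with the 0 set to 3 counts.

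By list, 9 of 11 measured nutrient transporters were lower and none higher (median -1.73). They included Slc2a1 (622 and 167 CPM) and the cationic amino acid carrier Slc7a1 (154 and 25.1 CPM). Efflux and organic anion transporters split, with 4 of 7 higher and 3 lower. The cholesterol exporter Abca1 was at 56.9 and 531 CPM and the prostaglandin carrier Slco2a1 at 81.3 and 377 CPM, while Slco1a4, Abcb1a (1056 and 260 CPM) and Abcg2 were lower. Of 11 measured junction genes 3 were lower and none higher (median -0.46), among them Cldn5 and Lsr. The tight junction scaffold Tjp1 was at 484 and 348 CPM, and the adherens junction cadherin Cdh5 at 555 and 803 CPM. Of the detoxifying enzymes 4 of 7 were lower and none higher (median -1.10).

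Interferon-stimulated genes were lower as a group, with 14 of 19 measured genes at least 2-fold lower and none higher (median -1.61). Rsad2 (viperin), an antiviral enzyme, was at 165 CPM in intact nerve and had 1 UMI in 1435916 in injured nerve. Ifit1 was at 274 and 9.75 CPM, Ifit3 at 160 and 3.48 CPM and the ubiquitin-like Isg15 at 565 and 57.1 CPM. The transcription factor Irf7 was at 181 and 18.1 CPM. Rsad2 was held by 20 and Ifit1 by 28 of the 44 intact cells, and no single cell held more than 19.0% of the intact UMIs of Rsad2, Ifit1, Ifit3 or Isg15. In EC_BAR the same list had 9 of 23 measured genes lower and none higher (median -0.82), and in EC_VEN-PV+ 4 of 13 lower and none higher (median -0.76). In injured nerve, Rsad2 was at 310 CPM in EC_BAR and at 5.26 CPM in EC_VEN-PV+. Ifit1 and Ifit3, and Ly6a and Ly6c1, are members of gene families with similar copies, and the sources used here do not say how reads shared between copies were counted.

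Basement membrane and matrix genes were higher, with 9 of 16 measured genes at least 2-fold higher and none lower (median 1.58). Collagen IV, the network collagen of vessel walls, was at 213 and 1140 CPM for Col4a1 and 167 and 738 CPM for Col4a2. Laminin beta 1 (Lamb1) had 1 UMI in intact nerve and was at 123 CPM in injured nerve. Nidogen-1 (Nid1), which links laminin to collagen IV, was at 20.3 and 178 CPM. The multiplexins Col15a1 and Col18a1 were at 32.5 and 264 CPM and at 46.7 and 386 CPM. Tgfbi, an adhesion protein induced by TGF-beta, was at 4.06 and 157 CPM. Fibulin-5 (Fbln5), an elastic fibre protein, had 0 UMIs in intact nerve and was at 138 CPM in injured nerve, at least 22.6-fold higher with the 0 set to 3 counts over the group, and Fbln2 was at 10.2 and 189 CPM. The list had 6 of 18 measured genes higher and 1 lower in EC_VEN-PV+ (median 0.73), and 9 of 17 higher and none lower in EC_BAR (median 1.07).

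**Figure D3:**
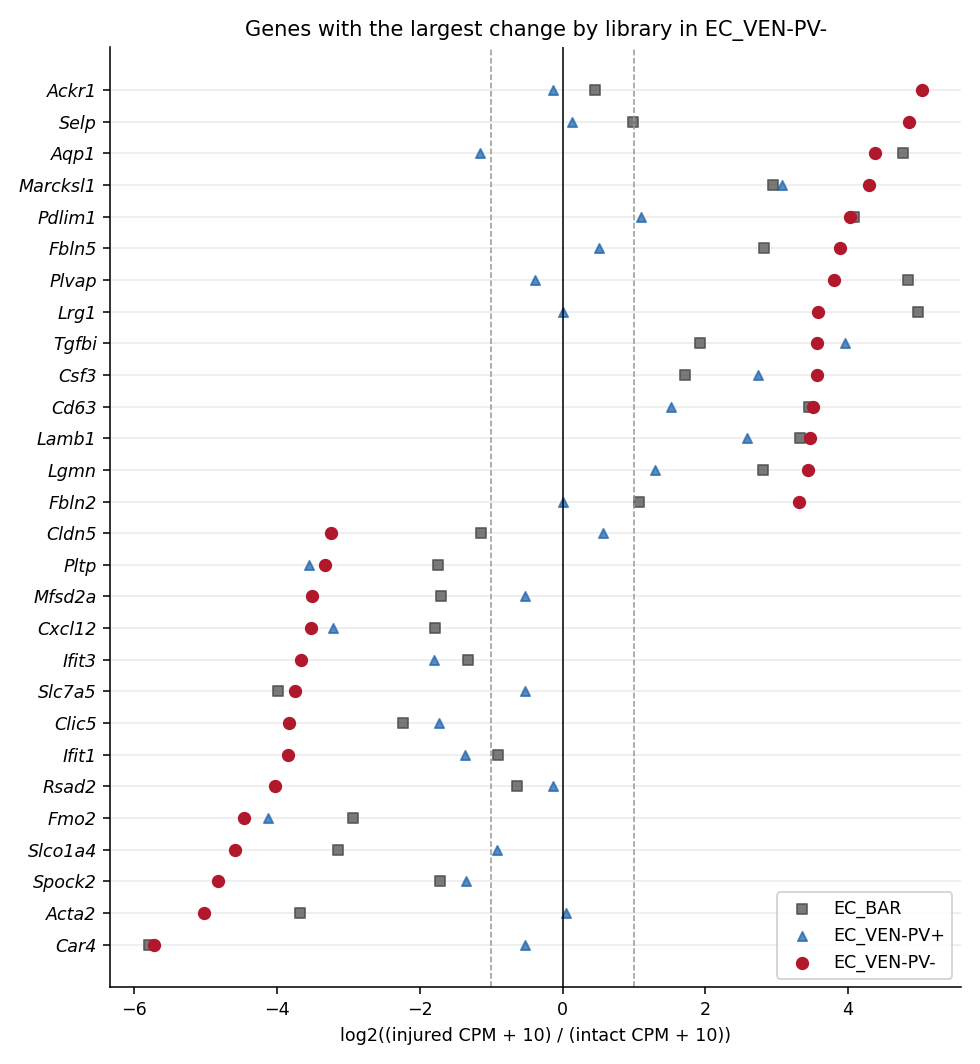
Log2 ratio of injured to intact (horizontal, 10 CPM added to both) for the 14 named genes highest and the 14 lowest in injured EC_VEN-PV- (red circles), with the same ratio in EC_VEN-PV+ (blue triangles) and EC_BAR (grey squares) and dashed lines at 2-fold. For Ackr1 and Selp the EC_VEN-PV- circles lie near 5 while both other classes lie between -1 and 1, whereas Car4 is near -6 in EC_VEN-PV- and EC_BAR alike.

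Several remaining named genes were cytoskeletal, lysosomal or contractile. Marcksl1, an actin regulator, was at 4.06 and 265 CPM, and Pdlim1, a stress fibre adaptor, at 20.3 and 482 CPM. The lysosomal proteins Cd63 and legumain (Lgmn) were at 6.09 and 173 CPM and at 24.4 and 362 CPM. Smooth muscle actin (Acta2) was at 473 CPM in intact nerve, with UMIs in 19 of 44 cells, and at 4.87 CPM in injured nerve. Tagln, which also marks contractile cells, was at 634 and 308 CPM. The fixed pericyte and smooth muscle set summed to 1109 and 321 CPM, with Kcnj8, Abcc9, Pdgfrb, Myh11 and Notch3 at 0 UMIs in intact EC_VEN-PV- cells. In EC_BAR, Acta2 was at 909 and 62.0 CPM. The part of contractile cells in these levels was not tested.

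Arterial identity genes were mostly lower in injured EC_VEN-PV- cells. Of 9 measured arterial identity genes 5 were lower and 1, Fbln5, higher (median -1.29). Sox17, an arterial transcription factor, was at 595 and 172 CPM, and the Notch ligand Dll4 at 110 and 33.4 CPM. The VEGF and Notch list had 4 of 9 measured genes lower and 1, Nrp1, higher (median -0.38), with the Notch target Hes1 at 514 and 86.4 CPM. Flow-responsive genes had 3 of 8 lower and none higher (median -0.55), with Klf2 at 2856 and 1066 CPM and Klf4 at 1180 and 456 CPM. The same list had 3 of 8 lower in EC_VEN-PV+ and 4 of 8 lower and 1 higher in EC_BAR. Egr1 and Fos, immediate early genes that rise on tissue dissociation, were at 2184 and 771 CPM and at 4951 and 2350 CPM, and that list had 2 of 16 lower and none higher (median -0.51).

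The shares of other lists stand beside those over all measured genes, 6.40% higher and 6.67% lower. The lower shares of heat shock and glycolysis genes were among those nearest to that, and each list rests on few measured genes. Antigen presentation had 2 of 11 lower, BMP and TGF-beta signalling 3 of 16 lower, and heat shock genes 1 of 10 lower, with none higher in any of these. Glycolysis had 1 of 13 lower, the regulator Pfkfb3 (130 and 13.2 CPM). Coagulation had 2 of 10 higher and 1 lower, the former including the tissue factor inhibitor Tfpi at 16.3 and 91.2 CPM. Insulin-like growth factor genes had 2 of 5 higher, with Igfbp4 at 91.4 and 976 CPM. Factors acting on nerve and mesenchyme had 5 of 13 lower and none higher, with Ptn at 1753 and 242 CPM, Cxcl12, Tgfb2, Rspo3 and Pdgfb. No gene of the G2/M list was measured, and the G2/M marker set summed to 10.2 and 52.9 CPM.

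**Figure D4:**
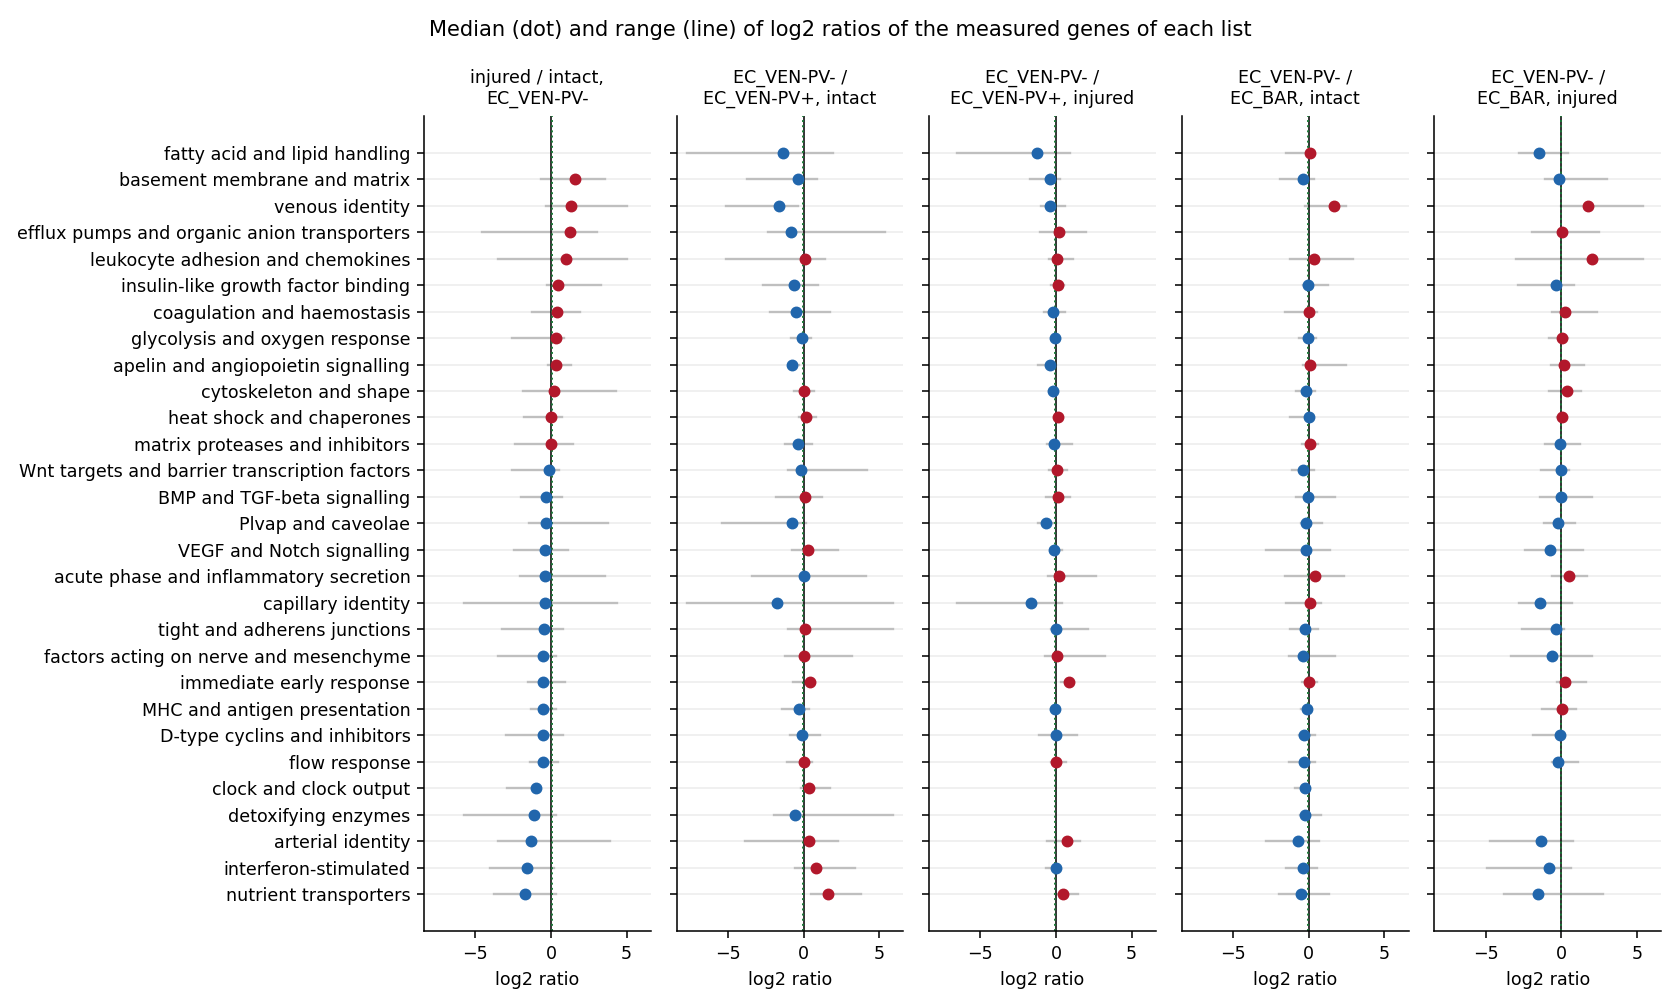
Median (dot) and range (line) of the log2 ratios of the measured genes of each list with at least 5 of them, for injured against intact within EC_VEN-PV- (first panel) and for EC_VEN-PV- against EC_VEN-PV+ and EC_BAR in each library, with red dots above 0, blue dots at or below 0 and a dotted green line at the median of all measured genes. Matrix and venous lists are highest (1.58 and 1.34) and nutrient transporter and interferon lists lowest (-1.73 and -1.61) in the first panel.

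Single cells were compared after thinning each to 2000 UMIs, which left out 1 injured EC_VEN-PV- cell and no intact one. Mal had a UMI in 34 of 44 intact cells (77.3%, interval 62.2 to 88.5) and in 43 of 120 injured cells (35.8%, 27.3 to 45.1), against 1.98% and 1.11% of EC_VEN-PV+ cells. Without thinning the Mal shares in EC_VEN-PV- were 97.7% and 71.1%. Cldn5 had a UMI in 95.5% and 40.0% of EC_VEN-PV- cells, with medians of 6.5 and 0 UMIs. Lrg1 had one in 31.8% and 98.3%, with medians of 0 and 5. Ackr1 had one in 4.55% and 56.7% of cells, and in EC_BAR in 0.690% of intact and 0 of 35 injured cells. Plvap had one in 4.55% and 79.2% of EC_VEN-PV- cells, against 97.5% and 95.8% of EC_VEN-PV+ cells. The means in injured cells were 0.508 UMIs for Mal and 0.883 for Cldn5 per thinned cell, levels at which sampling alone leaves many cells with 0 UMIs, so cells without a UMI were not read as cells that lack the gene.

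In injured nerve, UMIs of Mal or Cldn5 and of Ackr1 or Plvap occurred in some of the same EC_VEN-PV- cells. Singly, Mal was in 43 and Ackr1 in 68 of 120 thinned cells, and these counts, like those of each other class, limit how many cells can hold both. Mal and Ackr1 were found together in 24 of 120 injured cells (interval 13.3% to 28.3%), against 2 of 44 intact cells. They were together in 3 of 359 injured EC_VEN-PV+ cells, of which 4 held Mal, and in none of 35 injured EC_BAR cells, of which 0 held Ackr1. Whether the genes go together beyond their single shares was not tested. Cldn5 and Plvap were found together in 35 of 120 injured EC_VEN-PV- cells (29.2%, 21.2 to 38.2), against 2 of 44 intact cells. They were together in 41 of 359 injured EC_VEN-PV+ cells and 16 of 35 injured EC_BAR cells. The injured cells with both Mal and Ackr1 had a median of 7918 UMIs and the others 9834, and without the deepest 5% of cells in each group 19 of 113 held both. No doublet caller was run.

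**Figure D5:**
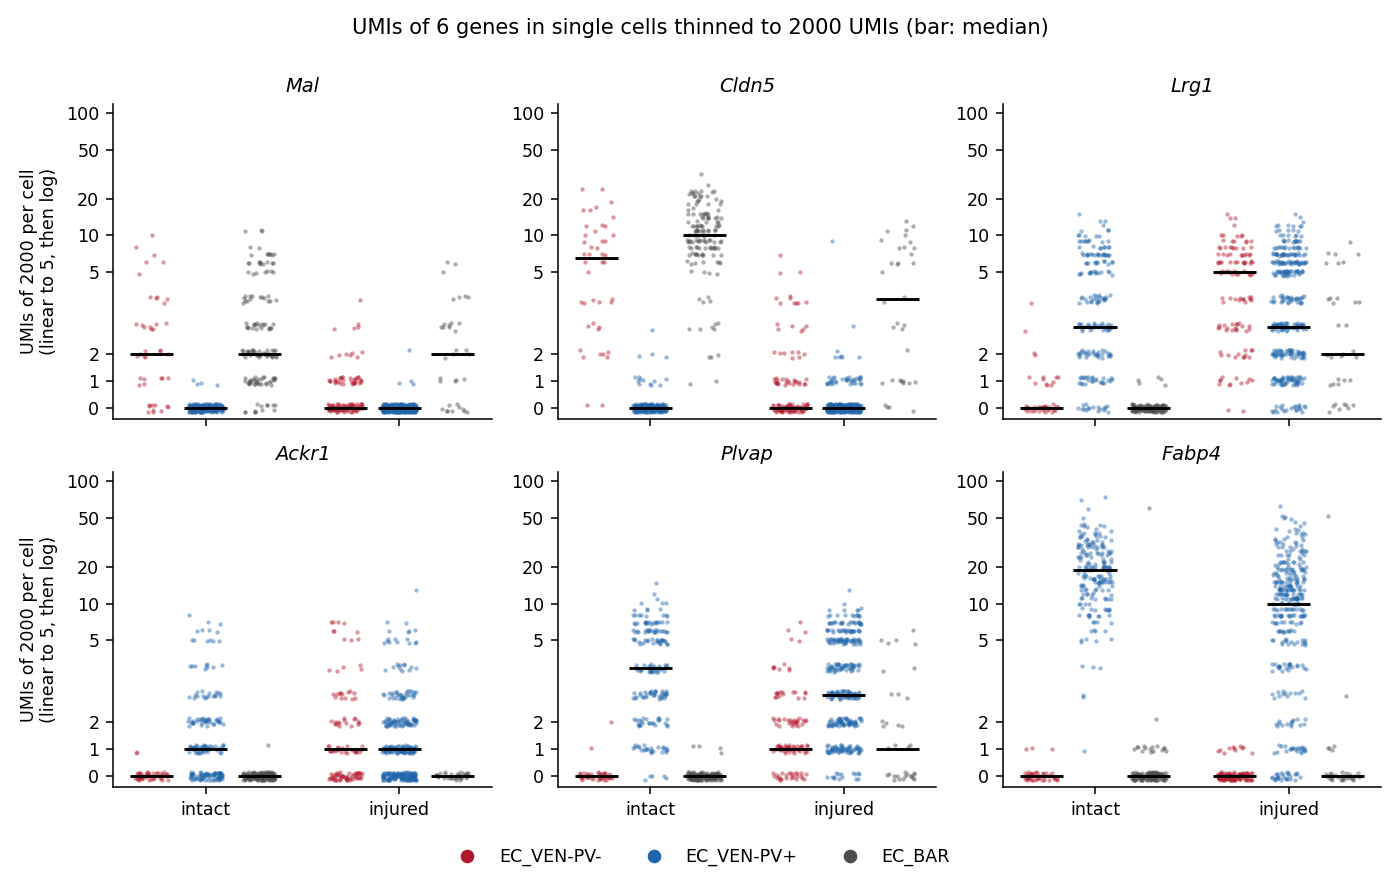
UMIs of Mal, Cldn5, Lrg1, Ackr1, Plvap and Fabp4 in single cells thinned to 2000 UMIs (vertical axis linear to 5, then log), 1 point per cell with small random offsets, by label and library, with the median as a black bar. In EC_VEN-PV-, Cldn5 has a median of 6.5 in intact and 0 in injured cells, Lrg1 a median of 0 and 5, and Fabp4 stays at 0 or 1 UMI in each cell.

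Variation among EC_VEN-PV- cells was read as the variance over the mean of UMIs in thinned cells (the Fano factor), whose median was 1.18 over 424 genes in intact and 1.16 over 440 genes in injured cells. In intact cells the 8 highest were AY036118, Actb, Malat1, Acta2, Cldn5, Tagln, Vcam1 and Vim. Cldn5 reached 4.55, with 0 to 24 UMIs per cell, and Vcam1 3.91, with UMIs in 24 of 44 cells and up to 9 in a cell. AY036118, an annotated long non-coding RNA, and the nuclear RNA Malat1 were high in both libraries, at 8.64 and 5.37 in intact and 6.47 and 11.4 in injured cells. In injured cells the metallothioneins Mt1 and Mt2, which bind metals, followed at 9.53 and 6.63. Mt1 had UMIs in 15 and Mt2 in 24 of 120 thinned cells, with up to 21 and 13 in a cell. Fos, Ier3, Aqp1 and Ctla2a completed the injured set, at 5.04, 3.85, 3.62 and 3.40.

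Markers of other cell types were low in EC_VEN-PV- with 1 exception beside the contractile genes above. The pan-leukocyte gene Ptprc was at 0 in each library, the myeloid set summed to 26.4 and 9.75 CPM, the Schwann cell set to 8.13 and 5.57 CPM and the fibroblast set to 52.8 and 30.6 CPM. The haemoglobin set summed to 2905 CPM in intact nerve, all of it, 1430 UMIs, in a single cell of 27927 UMIs, and to 0 in injured nerve. Without cells of at least 10 haemoglobin UMIs the injury comparison had 192 genes higher and 193 lower, close to the counts with them.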

How the data were processed

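Single endothelial cells of 1 intact and 1 injured library were profiled. The deposited values are UMI counts per gene and barcode, with no normalization by the authors. Cell Ranger 3.0.2 wrote the matrices, per the file headers. The tools Cell Ranger 6.1.2 and Seurat 4.0.1, with mm10 (GRCm38), are named per the submitters' processing notes, which do not say for which step. The annotation release was not stated. Of 53379 Ensembl IDs, 50604 had the same ID and version in GENCODE M21, which gave positions. Class labels are the authors', from the deposited cell table.

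UMIs were summed per class and library and scaled to CPM, with exact Poisson intervals, exact conditional binomial intervals for ratios and Clopper-Pearson intervals for shares (Python 3.11.15, scipy 1.17.1). Log2 ratios had 10 CPM added. A gene with 0 UMIs in a group was set to 3 counts over that group for a bound. Thinning drew 2000 UMIs per cell without replacement (seed 1). The named genes had at least 100 CPM in the higher group, from at least 20 UMIs in at least 5 cells. They were the 14 highest and 14 lowest log2 ratios by injury, the 12 largest each way held in both libraries and 6 each way in a single library for each class contrast, and the 8 highest Fano factors per library. Mitochondrial, ribosomal protein, predicted, haemoglobin, immunoglobulin and sex-linked genes were not ranked. The defining markers, Plvap and TdTomato were always named, and list members beyond the first 3 in a direction were named after their values were seen. The members, 30 gene lists and 17 marker sets were chosen with earlier results of these data known. The computations were tested on simulated data. No doublet caller was run. The alternatives were other pseudocounts, floors on low values, cell filters, thinning depths and scalings, TMM on the counts with edgeR 4.0.16 among them. Some members of the gene lists are not reported here by name.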

Additional observations from a re-analysis of the deposited data

Results flagged for a closer look

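Aqp1 was higher in injured than in intact EC_VEN-PV- cells (log2 ratio 4.38) and lower in EC_VEN-PV+ cells (log2 ratio -1.15). In EC_BAR cells it was also higher in injured nerve (log2 ratio 4.77). Over the alternatives run, the ratio in EC_VEN-PV- ranged from 3.83 to 5.09. The difference between the classes was not tested. Mt2 was higher in injured EC_VEN-PV- cells (log2 ratio 2.11, 71.1 and 341 CPM) and lower in EC_BAR cells (log2 ratio -2.05). One cell held 36.1% of the injured and 1 cell 31.4% of the intact UMIs of Mt2 in EC_VEN-PV-, EC_BAR had 10 UMIs in injured nerve, and the difference was not tested.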

How the results depend on the processing

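No paired analysis was possible because each condition was 1 library. Of the counts, shares and list counts under the alternatives, 83 moved and 323 did not. Of the named genes' log2 ratios 556 moved and 1376 did not. A ratio counted as moved where it lay outside the counting interval of the main ratio, computed with no CPM added. A ratio with 10 CPM added can lie outside that interval before any change. Part of the 556 therefore need not reflect processing. With 1 CPM added 0 moved, while leaving out cells of at least 10 haemoglobin UMIs gave 36. No named ratio that was at least 2-fold with 10 CPM added changed sign under the alternatives run, and smaller ratios were not checked for sign. Counts are given below as higher and lower in EC_VEN-PV- or in injured nerve, and they depend on the floor and on the pseudocount by construction. With a floor of 20 CPM they were 362 and 333 for injury, 254 and 336 against EC_VEN-PV+ in intact nerve, 60 and 70 in injured nerve, 67 and 83 against EC_BAR in intact nerve and 177 and 211 in injured nerve. In both libraries they were then 35 and 40 against EC_VEN-PV+, and 27 and 27 against EC_BAR. With a floor of 200 CPM the counts, in the same order, were 44 and 71, 45 and 42, 5 and 16, 8 and 10, and 26 and 30. In both libraries they were 1 and 6, and 4 and 3. With 50 CPM added, injury gave 90 and 121. Against EC_VEN-PV+ the lower count in intact nerve was 121, and injured nerve gave 22 and 21. Against EC_BAR the counts were 14 and 12 in intact and 46 and 58 in injured nerve. In both libraries 11 were lower against EC_VEN-PV+, and 6 and 6 passed against EC_BAR. Lists with a median beyond 1 numbered 1 higher and 2 lower with 50 CPM added, against 3 and 4.

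Thinning each cell to 2000 UMIs, which leaves fewer UMIs per gene, gave 341 genes higher by injury, 242 higher against EC_VEN-PV+ in intact and 65 lower in injured nerve. Against EC_BAR it gave 146 and 163 in intact and 249 and 273 in injured nerve. In both libraries 31 were then higher against EC_VEN-PV+ and 28 lower against EC_BAR. Scaling without mitochondrial and ribosomal genes gave 214 higher against EC_VEN-PV+ in intact nerve and 34 in both libraries. The mean of per-cell CPM gave 47 and 69 against EC_BAR in intact nerve and 23 lower in both libraries. Without any cell of a shared barcode, 63 genes were lower against EC_BAR in intact nerve. With under 5% mitochondrial UMIs, 9 were higher against EC_BAR in both libraries. The median of the efflux transporter list for injury, 1.24, was -0.23 with under 5% mitochondrial UMIs and -1.80 at the floor of 200 CPM. The cause of the moves from scaling, per-cell means, shared barcodes and the mitochondrial limit was not tested.

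The intact share, 6.13%, was 9.13% among cells of at least 3000 UMIs. Intact shares of cells with a UMI depended on depth. Lrg1 was in 65.9% of intact cells without thinning, against 31.8% at the main thinning depth. Vwf was in 100% without thinning and 52.3% at 1000 UMIs, Cldn5 in 100% and Plvap in 25.0% without thinning. The intact Lrg1 share also moved with a cell filter at the main thinning depth. It was 18.2% among cells with under 5% mitochondrial UMIs, and the cause was not tested. In injured cells Lrg1 was in 100% and 90.1% without thinning and at 1000 UMIs, Vwf in 99.2% and 61.2%, Cldn5 in 66.9% and 25.6%, and Plvap in 98.3% and 49.6%. The alternative without haemoglobin-rich cells was chosen after seeing the data. With 44 intact cells, genes near 10 CPM rest on about 5 UMIs, so large ratios against them are imprecise.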
